A study of Homo sapiens with 12 samples.

Results

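The genes described here are 9 genes of the DNA methylation machinery, namely the writers DNMT1, DNMT3A and DNMT3B, their cofactors UHRF1 and HELLS, the erasers TET1, TET2 and TET3, and the reader MBD2. They were taken by symbol from a table of raw RNA-seq counts of 17085 genes, and all 9 were found there. The RNA came from 786-O, a long-established human renal cancer cell line labelled as wild type, in 4 groups of 3 libraries each. All cells received their treatment for 24 h. The control group received the vehicle dimethylsulfoxide (DMSO), the everolimus group received everolimus, an inhibitor of the kinase complex mTORC1, the SGI-1027 group received 1.5 µM SGI-1027, a small-molecule inhibitor of DNA methyltransferases, and the combination group received both drugs. The treatment label of each library and the paper's methods give everolimus at 5 µM, alone and in the combination, whereas the protocol text of the same records gives 10 µM for everolimus alone, so the single dose may have differed from that in the combination. All libraries come from 1 cell line without a second line or a DNA methylation assay in these files, and no label says whether replicate libraries were grown as separate cultures, so the p-values measure the spread between these libraries, which may be technical.

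DNA methylation is the addition of a methyl group to cytosine, in mammals mostly where cytosine precedes guanine (CpG). DNMT3A and DNMT3B place new methyl groups, and DNMT1 copies them to the daughter strand at the replication fork, where UHRF1 recognizes the half-copied sites and HELLS, a chromatin remodeler, opens packed DNA. TET enzymes oxidize methylcytosine so that the mark can be lost, and MBD2 binds methylated CpG and brings in the NuRD repressor complex.

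The libraries held 37046231 to 41516976 counts. The kidney transcription factor PAX8 (77.6 to 119 FPKM), VIM (2659 to 3466 FPKM) and the epithelial keratins KRT8 and KRT18 were present in every library. CA9, a hypoxia target often seen in renal cancer, was nearly absent at 2 to 32 counts. Markers of blood, endothelial, liver and muscle cells (PTPRC, CDH5, PECAM1, ALB, DES) had at most 16 counts in any library. SGI-1027 replicate 3 stood apart from its group, with a chi-square per gene of 16.1 to 16.4 against the other SGI-1027 libraries, which differed from each other by 3.04. DMSO replicate 1 had values of 10.1 and 12.9 against the other DMSO libraries. Results that turned on these libraries are given with and without them.

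The transcript levels of the 9 genes spanned a wide range in untreated cells. On the FPKM scale, which divides counts by gene length and library total, the mean levels in DMSO (± SD, n = 3) ran from 46.3 ± 1.54 for DNMT1 and 32.4 ± 1.12 for UHRF1 through 12.1 ± 0.932 for DNMT3B and 11.2 ± 0.154 for MBD2 to 4.42 ± 0.0827 for HELLS. The TET3 level was 3.32 ± 0.142 FPKM and the TET2 level 2.76 ± 0.0627 FPKM. At the low end stood DNMT3A at 0.685 ± 0.0534 FPKM and TET1 at 0.186 ± 0.0261 FPKM. The maintenance enzyme was thus listed 3.82 ± 0.167-fold above DNMT3B and 67.7 ± 3.06-fold above DNMT3A (mean and SD of the ratio over 3 libraries). DNMT3B and MBD2 did not differ beyond their spread, and the other neighbours in this order had levels further apart than the sum of their SDs. The lengths implied by counts and FPKM ran from 4630 bases for DNMT3B to 16850 for TET1, with 12090 for DNMT3A, so a level per length depends on which transcripts those lengths cover. DNMT3L, the catalytically inactive partner of DNMT3A and DNMT3B, had 2 counts in all 12 libraries together.

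**Figure D1:**
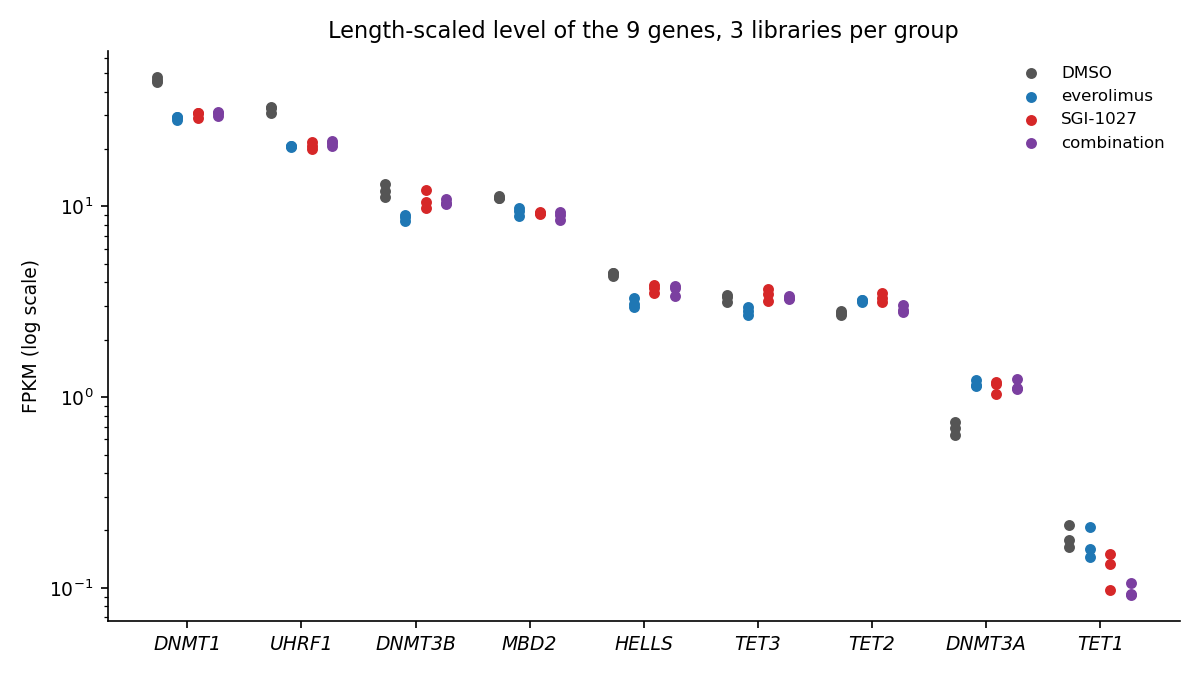
FPKM on a log axis for the 9 genes, ordered by their mean in DMSO, with each point 1 library and colours for DMSO, everolimus, SGI-1027 and combination. DNMT1 (46.3 in DMSO) and UHRF1 (32.4) stood at the top and DNMT3A (0.685) and TET1 (0.186) at the bottom in every group.

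The following values are library-scaled counts (CPM, reads of a gene scaled to a fixed library total, with TMM factors), which serve to compare 1 gene between libraries, and a gene was called changed at an adjusted p under 0.05 in edgeR's quasi-likelihood test over 12841 tested genes. The 3 comparisons with DMSO use the same DMSO libraries and are given side by side. In the everolimus group 2 of the 9 genes rose (DNMT3A, TET2) and 6 fell, where 27.2% of all tested genes rose and 29.2% fell. In the SGI-1027 group 2 rose (DNMT3A, TET2) and 5 fell against a background of 32.0% and 30.6%. In the combination group 1 rose (DNMT3A) and 6 fell against 32.8% and 33.4%. Of the libraries that stood apart, leaving out SGI-1027 replicate 3 gave 6 lower with SGI-1027, and leaving out DMSO replicate 1 gave 4 lower with SGI-1027 and 5 in the combination, with the counts of higher genes as before. The median log2 fold change of the 9 genes was -0.25 with everolimus, -0.26 with SGI-1027 and -0.30 in the combination, beside medians of all tested genes of 0.00, 0.02 and 0.01. No member reached the study's cut-off for differentially expressed genes (a log2 fold change of 1 or more in size with an unadjusted p under 0.05), which 4.79%, 7.33% and 9.96% of tested genes passed in the 3 groups. The nearest was TET1 in the combination at -0.95.

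**Figure D2:**
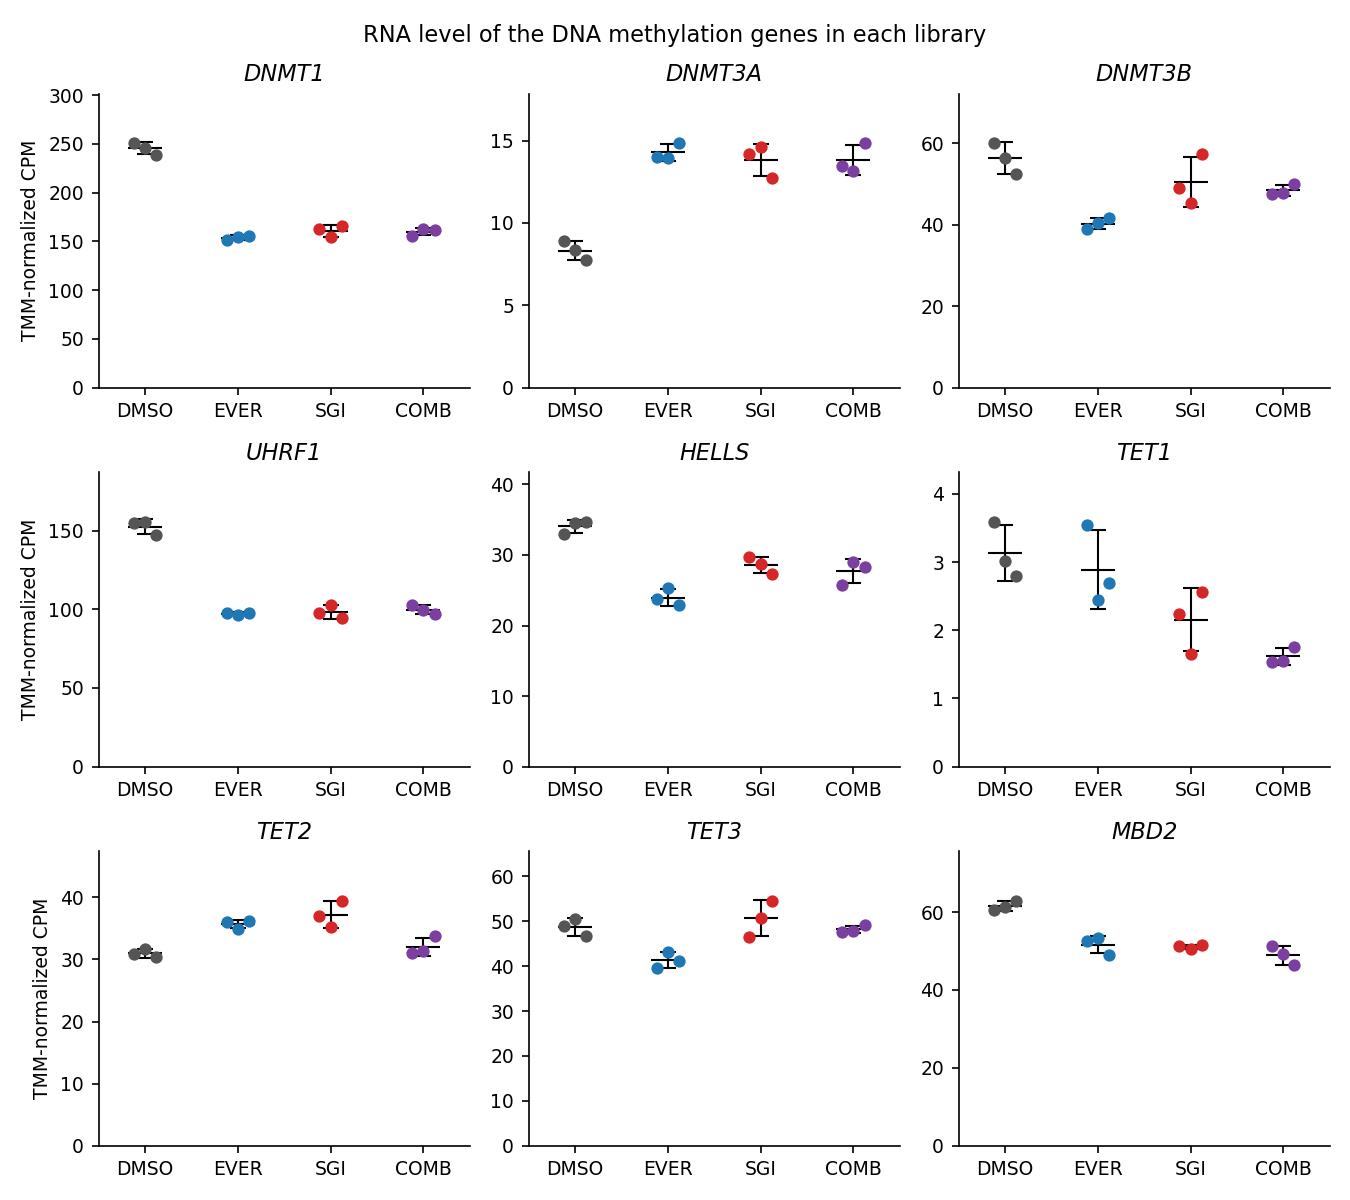
TMM-normalized CPM of each gene in every library (coloured points) by group (EVER, everolimus; SGI, SGI-1027; COMB, combination), with the group mean and SD as black bars, n = 3. DNMT1 and UHRF1 dropped to a common lower level in all treated groups and DNMT3A rose to a common higher one, while TET1 was lowest in the combination.

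The RNA levels of DNMT1 and UHRF1, whose proteins maintain methylation at replication, each fell to nearly the same value under every treatment. The paper blotted DNMT1, DNMT3A and DNMT3B protein in 786-O after 24 h, and the RNA values are not compared with those blots here. DNMT1 was at 252, 246 and 239 CPM in the DMSO libraries. It was at 151, 155 and 156 CPM with everolimus, at 163, 154 and 166 CPM with SGI-1027, and at 156, 163 and 162 CPM in the combination. The lowest DMSO library therefore lay far above the highest treated one, and the treated groups overlapped one another. DNMT1 fell to 62.7%, 65.6% and 65.2% of its DMSO mean, with log2 fold changes of -0.67, -0.61 and -0.62 (SE 0.04 each) and adjusted p values of 1.13e-10, 2.04e-10 and 1.11e-10. Between treated groups the DNMT1 differences were within 0.07 on the log2 scale, and the interval for the combination against SGI-1027 ran from -0.09 to 0.07.

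UHRF1 was at 155, 156 and 147 CPM in DMSO. It was at 97.6, 96.1 and 97.9 CPM with everolimus, at 97.4, 103 and 94.3 CPM with SGI-1027 and at 103, 99.6 and 96.7 CPM in the combination. Its 9 treated libraries all lay below the 3 DMSO libraries. The log2 fold changes of UHRF1 were -0.65, -0.64 and -0.61 (SE 0.04 each), with adjusted p values of 5.07e-10, 3.62e-10 and 3.91e-10. For UHRF1 the difference between the combination and SGI-1027 had a 95% interval from -0.07 to 0.11 on the log2 scale.

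HELLS, the remodeler of this maintenance group, fell under every treatment but further with everolimus than in the other groups. It was at 33.0, 34.5 and 34.7 CPM in DMSO, at 23.7, 25.3 and 22.9 CPM with everolimus, at 29.7, 28.7 and 27.3 CPM with SGI-1027 and at 25.8, 28.9 and 28.4 CPM in the combination. The log2 fold changes against DMSO were -0.51 ± 0.06, -0.26 ± 0.06 and -0.30 ± 0.06 (± SE), with adjusted p values of 1.3e-06, 0.00124 and 0.000269. HELLS was higher with SGI-1027 than with everolimus by 0.25 (adjusted p = 0.00595). It was also higher in the combination than with everolimus by 0.21 (adjusted p = 0.011), a call that was lost without everolimus replicate 3 (0.18, adjusted p = 0.057) or combination replicate 2 (0.18, adjusted p = 0.0526).

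The start sites of the 9 genes were searched for words bound by E2F, the transcription factor family of genes used in DNA replication. RefSeq promoter windows of GRCh38.p14, each 250 bases before and 50 after a start, matched all 9 genes with 20 starts in all. The words TTTCCCGC, TTTGGCGC, TTTCGCGC and TTTGCCGC were searched on both strands. They occurred in DNMT1, at -2 to 6 across its single listed start, in UHRF1, at -14 to -7 of the first and -160 to -153 of the second of 3 starts, and in HELLS, at -76 to -69 and -8 to -1. None of these words was in the windows of the other 6 genes. Of all 35116 windows 3.31% held such a word, and of all 27305 genes 3.99% had it at some start, beside 17 of the 35 S phase genes listed below that had a window. The stretches from 100 bases before to 10 after the start are shown for the 3 genes with such words, with the words in capitals. Positions are counted from the start as 1, with no position 0, and the matches are letters in a window and not measured binding.
DNMT1 (chr19:10194944-10195053, minus strand): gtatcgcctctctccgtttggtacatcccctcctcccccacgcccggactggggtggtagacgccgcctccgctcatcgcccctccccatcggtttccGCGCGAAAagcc
UHRF1 (first start, chr19:4909401-4909510, plus strand): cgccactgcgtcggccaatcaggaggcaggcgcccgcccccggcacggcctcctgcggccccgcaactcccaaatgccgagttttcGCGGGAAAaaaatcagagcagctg
HELLS (chr10:94545688-94545797, plus strand): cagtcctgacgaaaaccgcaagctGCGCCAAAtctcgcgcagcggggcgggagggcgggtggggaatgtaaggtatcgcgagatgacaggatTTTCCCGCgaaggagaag

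The de novo enzymes moved apart. DNMT3A rose to the same extent in all treated groups, from a low level. It was at 8.88, 8.36 and 7.72 CPM in DMSO (295 to 344 counts), at 14.0, 14.0 and 14.9 CPM with everolimus, at 14.2, 14.6 and 12.7 CPM with SGI-1027 and at 13.4, 13.2 and 14.9 CPM in the combination. Every treated library lay above every DMSO library. DNMT3A reached 172%, 166% and 166% of its DMSO mean, with log2 fold changes of 0.78, 0.73 and 0.73 (SE 0.08 each) and adjusted p values of 2.76e-07, 4.53e-07 and 3.46e-07. The treated groups could not be separated: for the combination against SGI-1027 the interval ran from -0.17 to 0.17. RefSeq lists a pseudogene copy, DNMT3AP1, whose symbol is absent from the count table analysed, and how reads shared with it were counted is not given in the sources used here.

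DNMT3B fell with everolimus and less in the combination. Its CPM was 60.2, 56.5 and 52.5 in DMSO, 38.9, 40.3 and 41.6 with everolimus, 49.0, 45.5 and 57.4 with SGI-1027 and 47.5, 47.9 and 49.97 in the combination. The SGI-1027 libraries overlapped DMSO because of replicate 3, the library that stood apart, while everolimus lay below all other groups. The DNMT3B log2 fold change was -0.49 ± 0.07 with everolimus (adjusted p = 1.32e-05). With SGI-1027 it was -0.16 ± 0.07 and not called (adjusted p = 0.0617), and without SGI-1027 replicate 3 it was -0.26 (adjusted p = 0.00062). In the combination it was -0.22 ± 0.07 (adjusted p = 0.0108), but -0.17 (adjusted p = 0.0541) without DMSO replicate 1. DNMT3B was higher than with everolimus both with SGI-1027 (by 0.33, adjusted p = 0.00248) and in the combination (by 0.27, adjusted p = 0.00599).

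The 3 TET genes had 3 different patterns. TET1, the rarest of the 9 transcripts with 59 to 134 counts per library, was lowest in the combination. It was at 3.60, 3.01 and 2.80 CPM in DMSO and at 3.54, 2.44 and 2.69 CPM with everolimus, which overlapped. It was at 2.24, 1.65 and 2.57 CPM with SGI-1027 and at 1.54, 1.56 and 1.76 CPM in the combination. Combination libraries all lay below the DMSO and everolimus libraries but overlapped the SGI-1027 range. The TET1 log2 fold change was -0.12 ± 0.19 with everolimus (adjusted p = 0.607) and -0.54 ± 0.19 with SGI-1027 (adjusted p = 0.0204). The SGI-1027 call did not hold without DMSO replicate 1 (-0.43, adjusted p = 0.0866) or SGI-1027 replicate 2 (-0.38, adjusted p = 0.104). In the combination the change was -0.95 ± 0.20 (adjusted p = 0.000343), to 51.6% of the DMSO mean, and against everolimus it was -0.83 (adjusted p = 0.00255). The combination and SGI-1027 were not separated for TET1 (-0.42, interval -0.84 to 0.01, adjusted p = 0.174). RefSeq also lists the pseudogene TET1P1, with the same limit as for DNMT3A.

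TET2 rose with either drug alone and not with both. It was at 30.8, 31.7 and 30.4 CPM in DMSO, at 36.1, 35.0 and 36.1 CPM with everolimus, at 36.9, 35.2 and 39.5 CPM with SGI-1027 and at 31.0, 31.4 and 33.8 CPM in the combination. All single-drug libraries lay above all DMSO and combination libraries. Its log2 fold change was 0.21 ± 0.06 with everolimus (adjusted p = 0.00401), 0.26 ± 0.06 with SGI-1027 (adjusted p = 0.000425) and 0.05 ± 0.06 in the combination (interval -0.07 to 0.17, adjusted p = 0.443). TET2 was the 1 gene of the 9 called between the combination and SGI-1027 (-0.22, adjusted p = 0.00944), and that call was lost without combination replicate 2 (-0.20, adjusted p = 0.05). Against everolimus the combination was lower by 0.16 (adjusted p = 0.0318), a call lost without either of everolimus replicates 1 and 3 or combination replicates 1 and 2 (-0.13 to -0.15). An antisense transcript, TET2-AS1, overlaps TET2 and has no entry in the count table analysed. The kits named for these libraries differ between the records and the paper, and the strand setting of the counting is not given, so reads of the pair cannot be told apart.

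TET3 fell with everolimus alone. It was at 48.9, 50.6 and 46.7 CPM in DMSO, at 39.7, 43.3 and 41.3 CPM with everolimus, at 46.6, 50.7 and 54.6 CPM with SGI-1027 and at 47.6, 47.7 and 49.2 CPM in the combination. Everolimus libraries lay below the rest, and the other groups overlapped. The log2 fold change was -0.24 ± 0.06 with everolimus (adjusted p = 0.00206), 0.06 ± 0.06 with SGI-1027 (adjusted p = 0.415) and -0.02 ± 0.06 in the combination (interval -0.14 to 0.10, adjusted p = 0.812). TET3 was higher than with everolimus in the SGI-1027 group (by 0.29, adjusted p = 0.00126) and in the combination (by 0.22, adjusted p = 0.0056).

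MBD2, the reader, fell under all treatments. Its CPM was 60.5, 61.4 and 63.0 in DMSO, 52.5, 53.4 and 49.1 with everolimus, 51.3, 50.5 and 51.5 with SGI-1027 and 51.2, 49.2 and 46.3 in the combination. DMSO stood above every treated library, and the treated groups overlapped. The MBD2 log2 fold changes were -0.25, -0.27 and -0.33 (SE 0.05 each), with adjusted p values of 0.000225, 9.85e-05 and 8.52e-06. The combination differed from SGI-1027 by -0.06 (interval -0.17 to 0.04).

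Comparing treated groups directly, 3 of the 9 genes were higher in the combination than with everolimus (DNMT3B, HELLS, TET3) and 2 were lower (TET1, TET2), where 20.1% of tested genes were higher and 19.2% lower. Against SGI-1027 the combination had 0 of the 9 higher and 1 lower (TET2), beside 9.40% and 10.2% of all tested genes. The 0 held in edgeR at an unadjusted p under 0.05, in DESeq2 and in limma. Between the single drugs 3 genes were higher with SGI-1027 (DNMT3B, HELLS, TET3) and 0 lower, beside 13.0% and 9.51% of tested genes. There, 1 gene (TET1) was lower at an unadjusted p under 0.05 in edgeR, and DESeq2 and limma called 0.

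The question of how the drugs combine was tested with an interaction contrast, the combination's log2 fold change minus the sum of the single-drug changes. It was positive for 5 of the 9 genes and negative for 2, beside 23.6% and 22.1% of all tested genes. DNMT1 had single-drug changes that summed to -1.28 on the log2 scale but a combined change of -0.62, an interaction of 0.66 ± 0.05 (adjusted p = 2.94e-08). UHRF1 was alike, with a sum of -1.29, an observed -0.61 and an interaction of 0.67 ± 0.06 (adjusted p = 7.19e-08). For DNMT3A the sum was 1.51 and the observed change 0.73 (interaction -0.78 ± 0.11, adjusted p = 2.44e-05). In these 3 genes the combination thus reached about the level of either drug alone. HELLS (0.47 ± 0.09, adjusted p = 0.000253) and DNMT3B (0.42 ± 0.10, adjusted p = 0.00212) also fell less in the combination than the sum of the single changes. The TET2 interaction was -0.42 ± 0.08 (adjusted p = 0.000262), as 2 single-drug rises met no rise in the combination. For TET1 the sum of -0.66 and the observed -0.95 did not differ beyond error (interaction -0.30, interval -0.88 to 0.28, adjusted p = 0.403). The MBD2 interaction of 0.19 (adjusted p = 0.0306) was weak, and TET3 had none called (0.16, interval -0.01 to 0.33, adjusted p = 0.111). The possible difference in everolimus dose between the groups bears on this contrast, and its part was not tested. The paper also reports lactate dehydrogenase release, its measure of lost membrane integrity, from 786-O given both drugs and not either alone. That release began before 24 h, so the combination RNA may come in part from damaged cells. Its part in these values was not tested either.

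**Figure D3:**
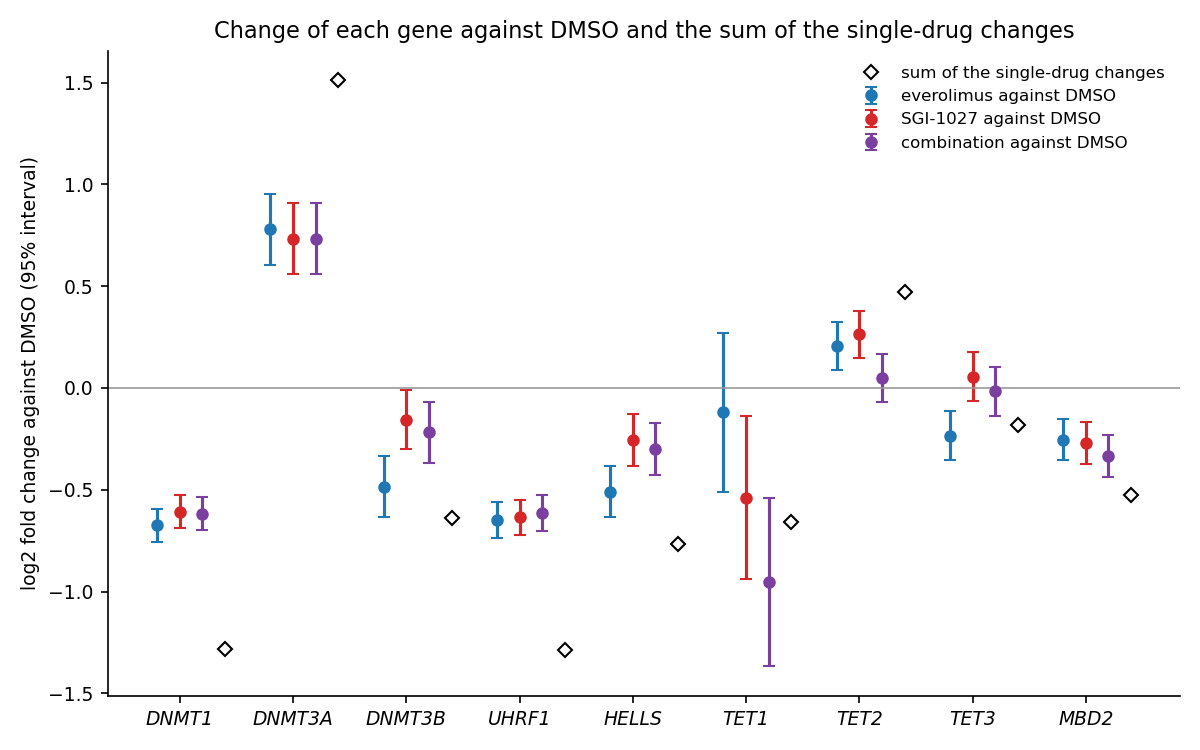
Log2 fold change of each gene against DMSO with its 95% interval for everolimus, SGI-1027 and combination, with open diamonds for the sum of the single-drug changes. For DNMT1, UHRF1 and DNMT3A the combination (-0.62, -0.61 and 0.73) sat beside the single drugs and far from the sums (-1.28, -1.29 and 1.51), whereas for TET1 it lay below both single drugs.

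The other genes around the 9 were described from lists typed by hand, which were chosen with earlier results of these data known. Their counts stand beside the shares of all tested genes in the everolimus, SGI-1027 and combination groups, which were 27.2%, 32.0% and 32.8% higher and 29.2%, 30.6% and 33.4% lower. Of the partners of the writers (19 tested), 11, 11 and 12 fell and 2 rose in each group, with median log2 fold changes of -0.20, -0.20 and -0.28. Upper-quartile scaling gave 4 higher in the combination. Among those that fell, PCLAF, a PCNA-binding factor at the replication fork, changed by -0.47, -0.67 and -0.65 on the log2 scale (adjusted p 4.9e-07, 3.64e-09 and 4.51e-09), and USP7, a deubiquitinase that binds DNMT1 and UHRF1, by -0.36, -0.48 and -0.51. The histone H3K9 methyltransferase SUV39H1 changed by -0.65, -0.67 and -0.53 on the log2 scale. TRIM28, the KRAB zinc finger corepressor, fell from 452 ± 7.55 CPM in DMSO to 354 ± 9.58, 325 ± 7.26 and 313 ± 12.3 CPM.

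UHRF2, the paralog of UHRF1, went the other way. Its mean of 33.7 ± 1.61 CPM in DMSO rose to 40.6 ± 1.92 (everolimus), 43.3 ± 1.11 (SGI-1027) and 50.3 ± 1.42 CPM (combination), by 0.27, 0.36 and 0.58 on the log2 scale (adjusted p 0.000283, 1.01e-05 and 2.06e-08). For UHRF2 the interaction was -0.05 ± 0.07 (adjusted p = 0.582), and the combination was above both single drugs (adjusted p 0.00011 and 0.00583). CDCA7, which recruits HELLS to chromatin, had log2 fold changes of -0.56, -0.36 and -0.30 (adjusted p 6.8e-08, 9.22e-06 and 6.59e-05). ZBTB24, which activates CDCA7, was lower with everolimus (-0.23, adjusted p = 0.0175), with uncalled values of 0.03 and 0.04 in the others.

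Readers of methyl-CpG and NuRD subunits (21 tested) had 5, 5 and 6 higher and 7, 6 and 9 lower in the 3 groups, not far from the shares of all tested genes, with medians of -0.08, -0.02 and -0.11. Upper-quartile scaling gave 4 lower with everolimus. The largest log2 fold changes in the list were 0.40, 0.48 and 0.49, in genes not named here. The genes named next fell or were not called, and so do not stand for the list. MBD3, the NuRD subunit that takes the place of MBD2 in a separate form of the complex, changed by -0.32, -0.46 and -0.63 on the log2 scale (adjusted p 1.28e-05, 1.28e-07 and 1.41e-09). The NuRD subunits MTA2 (-0.43, -0.47 and -0.63), HDAC1 (-0.27, -0.45 and -0.52) and GATAD2A (-0.58, -0.45 and -0.57) fell in all comparisons with DMSO. CHD3, a NuRD remodeler, had log2 fold changes of -0.09, -0.08 and -0.35 and was not called with SGI-1027 (adjusted p = 0.0524). MBD1 was lower with everolimus (-0.14, adjusted p = 0.0169), and MBD4 had values of -0.02, -0.02 and 0.00 with no call.

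Genes of active demethylation and repair (19 tested) had 4, 4 and 5 higher and 7, 10 and 10 lower, with medians of -0.12, -0.20 and -0.26, and the counts higher, like the 7 lower with everolimus, were near the shares of all tested genes. TDG, the glycosylase that removes the bases TET enzymes oxidize, changed by -0.39, -0.47 and -0.53 on the log2 scale (adjusted p 0.00042, 5.11e-05 and 1.41e-05). APEX1, PARP1 and NEIL3, which act in base excision repair, fell in every comparison with DMSO. NEIL3 reached -0.89 in the combination. OGT, a sugar transferase that binds TET proteins, rose from 208 ± 11.5 CPM in DMSO to 299.7 ± 12.2, 375 ± 11.5 and 402 ± 5.01 CPM, which are log2 fold changes of 0.53, 0.85 and 0.95 (adjusted p 1.15e-08, 1.3e-11 and 1.61e-12). NEIL1, a base excision glycosylase named after its values were seen, was the 1 gene of this list past the study's cut-off, from a low 0.388 ± 0.0825 CPM in DMSO to 0.935 ± 0.26 with SGI-1027 (1.27, adjusted p = 0.00276) and 0.967 ± 0.281 CPM in the combination (1.31, adjusted p = 0.00183).

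Genes that supply methyl groups through folate and methionine (19 tested) had 1, 3 and 4 higher and 11, 11 and 10 lower, with medians of -0.28, -0.21 and -0.10. With everolimus 5 were higher under upper-quartile scaling. AHCY, which clears the by-product of methylation, had log2 fold changes of -0.28, -0.52 and -0.54 (adjusted p 8.73e-06, 2.56e-09 and 1.22e-09). The folate enzymes MTHFD1 (-0.77, -0.73 and -0.62) and SHMT1 (-0.70, -0.61 and -0.73) fell under all treatments, and TYMS, which makes thymidylate, fell from 344 ± 3.42 CPM to 236 ± 1.87, 187 ± 7.72 and 170.4 ± 5.71 CPM.

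**Figure D4:**
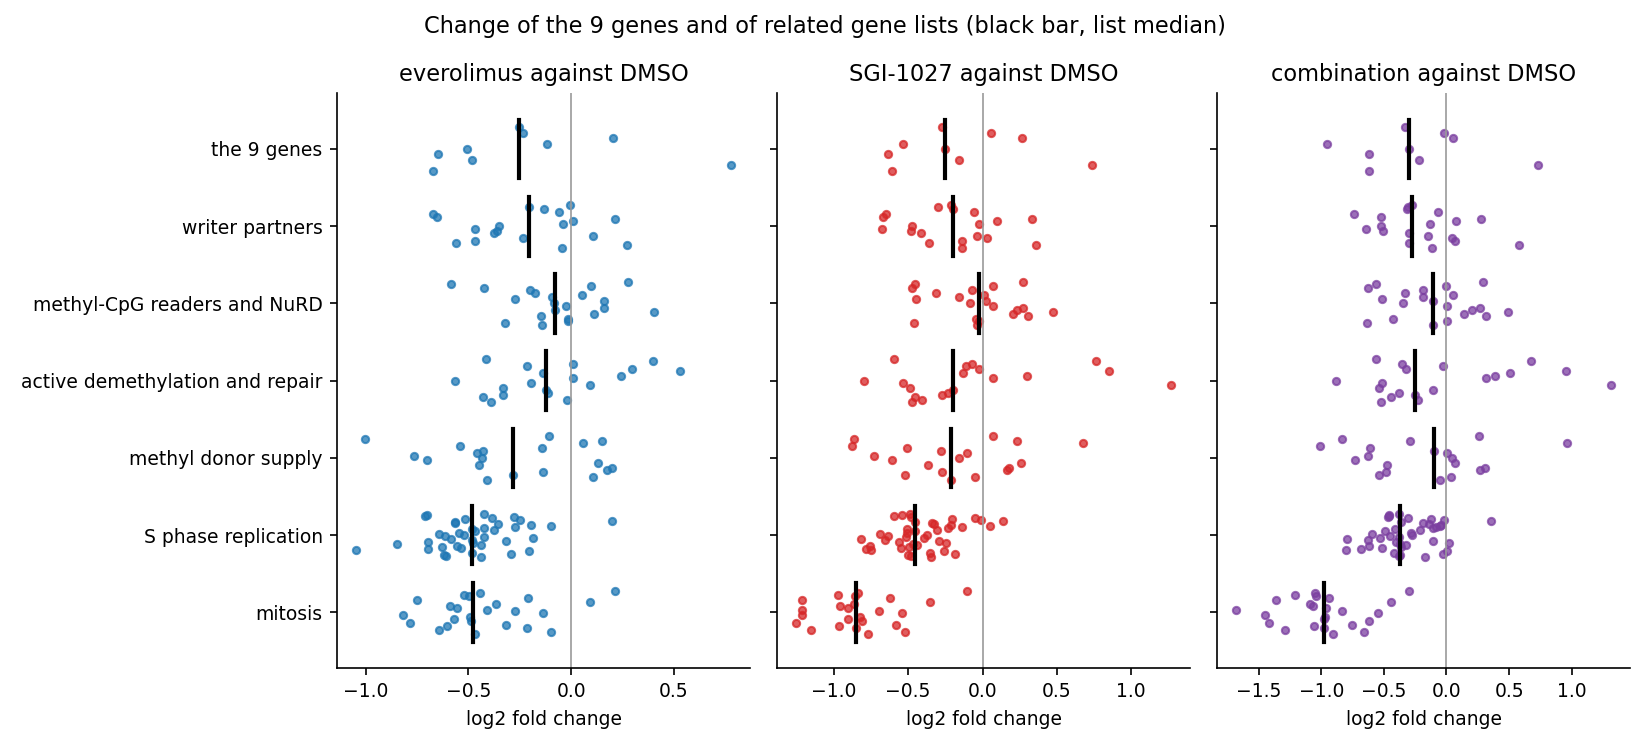
Log2 fold change against DMSO of every tested gene in each list (points) for everolimus, SGI-1027 and combination, with the list median as a black bar. The mitosis list moved from a median of -0.48 with everolimus to -0.98 in the combination, while the S phase list went from -0.48 to -0.37.

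DNMT1, UHRF1 and HELLS are used at the replication fork, so proliferation genes were measured in the same libraries. Of 42 S phase genes 40 fell with everolimus, 38 with SGI-1027 and 31 in the combination, with median log2 fold changes of -0.48, -0.46 and -0.37. In edgeR 0 rose with everolimus, where 1 did at an unadjusted p under 0.05 and 0 in DESeq2 and limma, and 0 rose with SGI-1027 by any of these. In the combination 1 rose, CCNE1 (0.36, adjusted p = 0.00223), named after its value was seen. The summed S phase level was 3707 to 3840 CPM in DMSO, 2742 to 2753 CPM with everolimus, 2791 to 2820 CPM with SGI-1027 and 2967 to 3042 CPM in the combination. These genes shared the direction of the interaction seen in DNMT1 and UHRF1, with 38 of 42 called positive, beside 23.6% of all tested genes, and a median of 0.58. MCM4, a subunit of the replicative helicase, changed by -0.62, -0.50 and -0.37 on the log2 scale with an interaction of 0.75 (adjusted p = 2.66e-09). Not every S phase gene had the order of MCM4. Against everolimus the combination had 22 of these genes higher and 3 lower, beside 20.1% and 19.2% of all tested genes. Mitosis genes (24 tested) fell in another order, with 21, 23 and 24 lower and medians of -0.48, -0.85 and -0.98, and their sum was 5610 to 5807 CPM in DMSO and 2866 to 2904 CPM in the combination. CDC20, the activator of the anaphase-promoting complex, changed by -0.75, -1.21 and -1.36 on the log2 scale (adjusted p 6.14e-12, 6.54e-15 and 6.85e-16). The part of cell cycle phase in the changes of the 9 genes was not tested, and in bulk RNA fewer cells in a phase and less RNA per cell cannot be told apart.

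Germline genes that are silenced by promoter methylation in many body cells were read as a further list, of which 34 of 43 had a row. In 27 of the 34 no library reached 10 counts, and the 12 with 0 counts in all DMSO libraries (a count of 0 allows up to 3) had at most 2 counts in any treated library. Only 6 passed the filter on low counts, of which 0 rose and 1 fell in each comparison with DMSO in edgeR. At an unadjusted p under 0.05, 0, 1 and 1 were higher with everolimus, SGI-1027 and the combination. DESeq2 called 0 higher in each, and limma called 1 higher in the combination. Under upper-quartile scaling, and with a minimum of 10 counts in every library, edgeR called 1 higher with SGI-1027 and 1 in the combination, and upper-quartile scaling called 0 lower with everolimus. The gene that fell was MAGEA3, with log2 fold changes of -0.21, -0.41 and -0.39 (adjusted p 0.00543, 1.02e-05 and 1.51e-05), which shares much of its sequence with MAGEA6 and other family members, so its count is uncertain. PRAME was at 29.3 ± 2.01 CPM in DMSO and 32.0 ± 0.309 CPM in the combination (0.13, adjusted p = 0.0701). XAGE1B, a gene of a family of near-identical copies, varied from 0 to 76 counts among replicates, and no value of it is compared.

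Across the 12 libraries, which share the drug groups and so cannot be read as independent points, the maintenance genes varied together. The reader MBD2 varied with DNMT1 too, so this was not particular to maintenance genes. How common such r values are among all tested genes was not measured. Pearson's r of log2 CPM was 0.98 between DNMT1 and UHRF1, 0.85 between DNMT1 and HELLS and 0.89 between DNMT1 and MBD2. It was -0.97 between DNMT1 and DNMT3A, 0.73 between DNMT1 and DNMT3B and 0.81 between DNMT3B and TET3. Among all tested genes, those with the most similar pattern to DNMT1 were PES1 (r = 0.996), NOLC1 (0.995) and PUM3 (0.993), which act in ribosome or nucleolar assembly. PES1 had log2 fold changes of -0.74, -0.68 and -0.68 in the 3 groups. Nearest to UHRF1 were PYGL (0.992), NANS (0.992) and TOPBP1 (0.990), and nearest to DNMT3A were SPINT2 (0.989), FAM228B (0.989) and COL7A1 (0.983). HELLS was closest to CDC6 (0.961), TASOR2 (0.958) and PPAT (0.956), of which CDC6 loads the replicative helicase and changed by -0.85, -0.47 and -0.37. MBD2 was closest to DNAJC2 (0.972), VTA1 (0.971) and BCCIP (0.970), and DNMT3B to the histone methyltransferase gene DOT1L (0.960), PRICKLE3 (0.958) and PHRF1 (0.957). The likeness was lower for TET1 (TUSC1 0.972, HSPA2 0.948, SFPQ 0.941), TET2 (SLC44A2 0.956, ZFHX4 0.955, VCL 0.938) and TET3 (ARSJ 0.930, SERTAD2 0.925, CABLES2 0.921) in the last of the 3 ranks.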

How the data were processed

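The authors deposited raw counts (whole numbers per gene symbol and library) and FPKM values of the same genes, in which FPKM equals the count divided by an implied gene length and the library total. The aligner and counter are not given in the sources used here. The submitters' processing notes name the mouse builds GRCm38 and mm10, although the symbols are human, so no gene coordinates were taken from the tables. The records name an RNeasy extraction and SMARTer libraries, and the paper TRIzol and TruSeq Stranded.

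The counts entered edgeR 4.0.16 under R 4.3.3 (TMM, filterByExpr, prior count 0.125, quasi-likelihood fit of all 12 libraries). Of 17085 genes 12841 were tested, with Benjamini-Hochberg adjustment over these. Patterns were compared by Pearson's r of log2(CPM + 0.5). The scripts were tested on simulated data. Same-numbered replicates did not deviate together (18 pairs, r from -0.30 to 0.07), so the numbers pair nothing. No unmapped columns were used.

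Alternatives were DESeq2 1.42.0, upper-quartile scaling, 2 other filters, only the groups of a contrast, a replicate block, limma 3.58.1 on log2(FPKM + 1) and log2(FPKM + 0.1), the study's cut-off, and each library left out. Each library held 37046231 counts or more, and whether counting error or the spread between libraries limited the precision of a gene was not tested. TET1 had the fewest counts of the 9 genes, at 59 to 134 per library. DNMT3A came next, with 295 to 344 in DMSO. Named genes were the 9, the 4 of each list with the smallest p with SGI-1027 and in the combination, a fixed set of readers and partners, and the 3 nearest patterns. A gene that this rule would name is not reported here, although it entered every fit and list count. Members and lists were chosen with earlier results of these data known. Promoters are from RefSeq.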

Additional observations from a re-analysis of the deposited data

Results flagged for a closer look

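In 7 of the 9 genes the change with both drugs differed from the sum of the single-drug changes in a test of that difference itself, edgeR's interaction contrast, which was called positive in 23.6% and negative in 22.1% of all tested genes. The interaction was 0.66 for DNMT1 (adjusted p = 2.94e-08), 0.67 for UHRF1 (7.19e-08), 0.47 for HELLS (0.000253), 0.42 for DNMT3B (0.00212) and 0.19 for MBD2 (0.0306) on the log2 scale. It was -0.78 for DNMT3A (2.44e-05) and -0.42 for TET2 (0.000262). For all 7 the sign was opposite to that of the single-drug changes, so the combined change was smaller in size than the sum. The call for MBD2 was lost in 6 other settings and kept in 13, and those that lost it included upper-quartile scaling (0.12, adjusted p = 0.172). Groups of 3 libraries were too small for a test of single outlying libraries.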

How the results depend on the processing

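The tally here covers the 63 comparisons of the 9 genes and 20 other settings, and leaves out the study's cut-off. Fits of only the compared groups give no interaction. Of 1251 values 1227 kept their side of the threshold, 19 lost a call, 5 gained a call and 0 called values reversed direction. Some uncalled values near 0 changed sign. Throughout these 20 settings 55 comparisons held. DESeq2 and the fit without a filter called DNMT3B lower with SGI-1027 (-0.17, adjusted p 0.0396 and 0.0223), as did leaving out DMSO replicate 3 (-0.20, adjusted p = 0.0289) or SGI-1027 replicate 3 (-0.26). Both limma settings left 1 gene lower in the combination than with everolimus, TET1, and limma on log2(FPKM + 1) did not call TET1 with SGI-1027 (-0.07, adjusted p = 0.053). With a library left out, the genes lower in the combination numbered 1 to 2 against everolimus and 0 to 1 against SGI-1027. Without SGI-1027 replicate 3 the TET3 interaction was called (0.22, adjusted p = 0.0174). The study's cut-off, which is not in the tally, called 0 of the 9 genes in each comparison and direction, so every call was lost under it. Ratios of CPM in place of FPKM, which are not scaled by length, were 4.36 for DNMT1 over DNMT3B, 29.6 for DNMT1 over DNMT3A, 4.48 for UHRF1 over HELLS and 15.7 for TET3 over TET1.

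The replicate block, tried although the replicate numbers pair nothing (2 of 12 libraries correlated best with their own number), left 2 higher and 6 lower with everolimus, 2 and 5 with SGI-1027 and 1 and 6 in the combination. Upper-quartile scaling moved the share of calls that were higher from 48.2% to 60.7% with everolimus and from 51.7% to 39.5% for the interaction over all tested genes. It also changed list counts, with 4 of the readers lower (7 under TMM) and 5 methyl donor genes higher (1 under TMM) with everolimus, and 4 writer partners higher in the combination (2 under TMM). Of 882 list counts 71 moved by over 1.5 times, or 36 of 840 without the study's cut-off, and the cause was not tested.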
